A study of Mus musculus with 12 samples.

Results

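The genes for organelle contact site tethers and lipid transporters were measured in heart ventricles of Vps13c knockout mice. The members were chosen by name, as proteins that hold organelle membranes together or move lipid or calcium signals across the gap between them. The list of 39 symbols gives 38 genes among the 21959 in the count table, because Ptpip51 and Rmdn3 name the same gene, and Tmem24 is annotated as C2cd2l. Poly-A RNA was sequenced from the ventricles of 6 Vps13c-cKO mice (Vps13c knocked out, described as cardiac-specific) and 6 WT mice, all male, 7 weeks old and fed chow. The labels number the mice, and each gave a single library. The sources used here give neither the strain nor the driver of the knockout, nor whether WT mice carried that driver or the targeted allele. Effects of such a driver and of the loss of Vps13c cannot be told apart.

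Organelles of the cell touch at contact sites, where the endoplasmic reticulum (ER) lies close to mitochondria, lysosomes, lipid droplets, the Golgi or the plasma membrane. VAP proteins sit in the ER membrane and hold a large set of partners through a short peptide motif called FFAT. Some partners are shuttles that carry a lipid molecule at a time in a pocket, and others are bridges along which lipids can slide. VPS13C is such a bridge, and it binds VAP proteins and reaches late endosomes, lysosomes and lipid droplets. In the heart, junctions of the sarcoplasmic reticulum with the plasma membrane and with mitochondria also carry the calcium signals of the beat and of hormone receptors.

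The 12 libraries held 12484523 to 15562942 gene counts each, the data are bulk tissue, and the targeted gene was low in every library labelled as knockout. Vps13c had between 16.3 and 20.3 CPM (counts scaled to a common library size by TMM) in Vps13c-cKO ventricles (median 18.1), against 54.6 to 68.6 CPM in WT ventricles (median 61.8). The Vps13c-cKO mean of Vps13c was 29.4% of the WT mean, and the source of the remaining reads was not tested. Ventricular cardiomyocyte markers were abundant in both groups. WT mouse 4 stood apart in genes of the atrium, with 31.3 CPM of Myl4, 29.3 CPM of Myl7 and 8.24 CPM of Sln, where no other mouse passed 2.19 CPM of Myl4, 0.353 CPM of Myl7 or 0.0706 CPM of Sln. Results are therefore also given without that mouse where they rest on it. In bulk tissue, fewer cells of a type and less RNA per cell cannot be told apart. The summed level of 12 fibroblast markers was 2360 to 2610 CPM in Vps13c-cKO and 2043 to 2293 CPM in WT, and 9 of the 12 rose. Of 12 endothelial markers 1, the tight junction gene Cldn5, fell (summed level 1544 to 1756 CPM in Vps13c-cKO and 1649 to 1813 CPM in WT). Of 12 macrophage markers 4 rose and 0 fell, with 362 to 433 CPM summed in Vps13c-cKO and 298 to 415 CPM in WT. Of 11 tested genes listed for smooth muscle and pericytes, 2 rose and 2 fell. The list summed to 2942 to 3071 CPM in Vps13c-cKO and 2856 to 3083 CPM in WT. It includes Des, the desmin gene, which heart muscle cells also express, so this sum does not measure smooth muscle and pericytes alone. The smooth muscle marker Tagln was near 0 in both groups, at 0.109 CPM in Vps13c-cKO and 0.0833 CPM in WT. Of 12 cardiomyocyte markers 2 rose and 3 fell (63840 to 68610 CPM in Vps13c-cKO, 65290 to 70930 CPM in WT). The part of these cell markers in the results on contact site genes was not tested.

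Most of the contact site genes did not differ from WT beyond the threshold. All 38 were tested, and 5 passed an adjusted p under 0.05 by the quasi-likelihood test of edgeR, which is 13.2% of them, where 10.7% of all 12384 tested genes did. That share is near the background, so the count says nothing particular about the group. Lower in Vps13c-cKO were the START-domain gene Stard13, the anoctamin gene Ano10, the IP3 receptor gene Itpr2 and the oxysterol-binding gene Osbpl1a. The only gene past the threshold in the other direction was Gramd1b, a sterol transporter. Among all tested genes, 5.10% were lower and 5.65% higher. The median log2 fold change (Vps13c-cKO minus WT) was -0.01 over the 38 genes and 0.00 over all tested genes, and the median absolute change was 0.07 against 0.09. The 38 changes ran from -0.39 for Stard13 to 0.18 for Tmem24. Before adjustment, 12 of the 38 had p under 0.05, where 23.8% of all tested genes did. The summed reads of the 38 genes came to 1871 to 1914 CPM in Vps13c-cKO ventricles (mean 1895, SD 14.08). In WT ventricles they came to 1900 to 1952 CPM (mean 1933, SD 21.51). The knockout mean was lower and the ranges overlapped, and the difference in this sum was not tested.

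**Figure D1:**
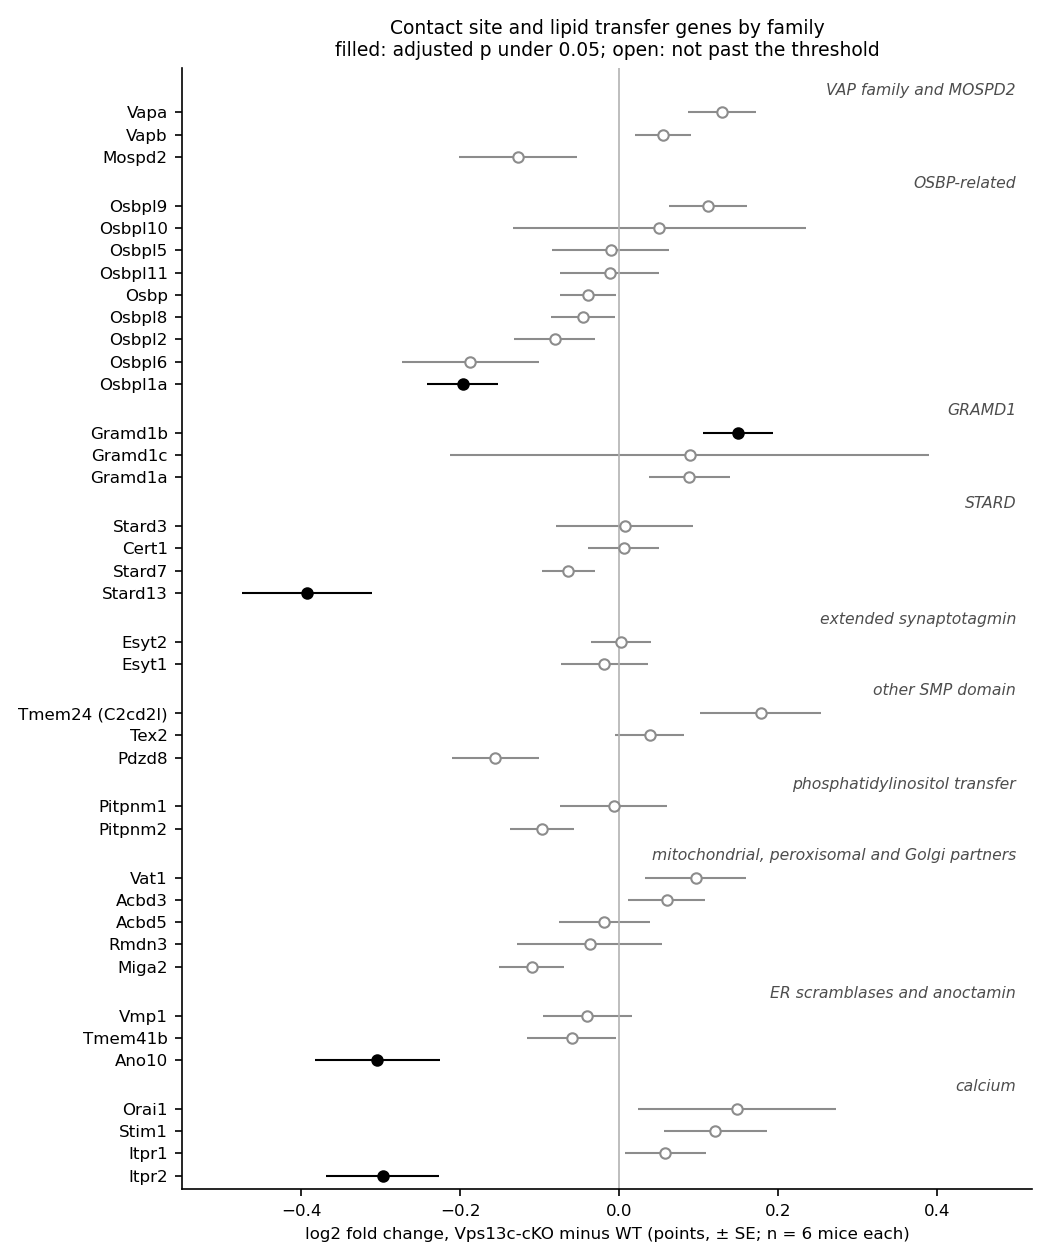
Log2 fold change of each of the 38 genes (horizontal axis, Vps13c-cKO minus WT, ± SE, n = 6 mice each), grouped by family. Filled points passed an adjusted p under 0.05: Stard13 (-0.39), Ano10 (-0.30), Itpr2 (-0.30) and Osbpl1a (-0.20) lie left of 0 and Gramd1b (0.15) lies right of it.

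The genes differed far more from each other in level than between the groups. Per kilobase of exon, the highest WT mean was 163 times the lowest. Osbp, which trades cholesterol for a phosphoinositide between ER and Golgi, led with 36.6 ± 1.57 CPM per kb in Vps13c-cKO and 37.6 ± 0.738 CPM per kb in WT (SD, n = 6 each). The mitochondrial lipid carrier gene Stard7 came next with 33.1 ± 0.846 CPM per kb in Vps13c-cKO and 34.6 ± 1.09 CPM per kb in WT, followed by Vapa with 22.0 ± 0.952 CPM per kb in Vps13c-cKO and 20.1 ± 1.079 CPM per kb in WT. Each of these 3 lay above the next gene in all 6 WT mice. Osbpl9 and Osbpl8 followed and overlapped each other in WT (16.4 ± 1.254 and 16.4 ± 0.634 CPM per kb), and Vapb was at 15.2 ± 0.419 CPM per kb. Near the bottom stood the calcium genes Itpr1, Itpr2, Stim1 and Orai1, all between 1.90 and 2.38 CPM per kb in WT. Lengths are those of all annotated exons merged, 18319 bases for Itpr1 and 14802 for Itpr2, and the order depends on them. In CPM alone, the WT mean of Itpr1 was 43.6, near that of Vmp1 at 45.9. Osbpl10 and Gramd1c were lowest, at 0.370 ± 0.0873 and 0.231 ± 0.0854 CPM per kb in WT, and Gramd1c had as few as 7 reads in a mouse. Of 37 neighbouring pairs in this order, 9 were apart in all WT mice, and the others did not differ beyond their spread in that sense. The levels were also steady from mouse to mouse. The median coefficient of variation of the 38 genes was 6.28% in Vps13c-cKO and 6.79% in WT. For all tested genes it was 8.56% and 9.08%. The 38 genes had a median level percentile of 64.9 per kb, against 50.0 for all tested genes. Spread was not compared at matched level.

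**Figure D2:**
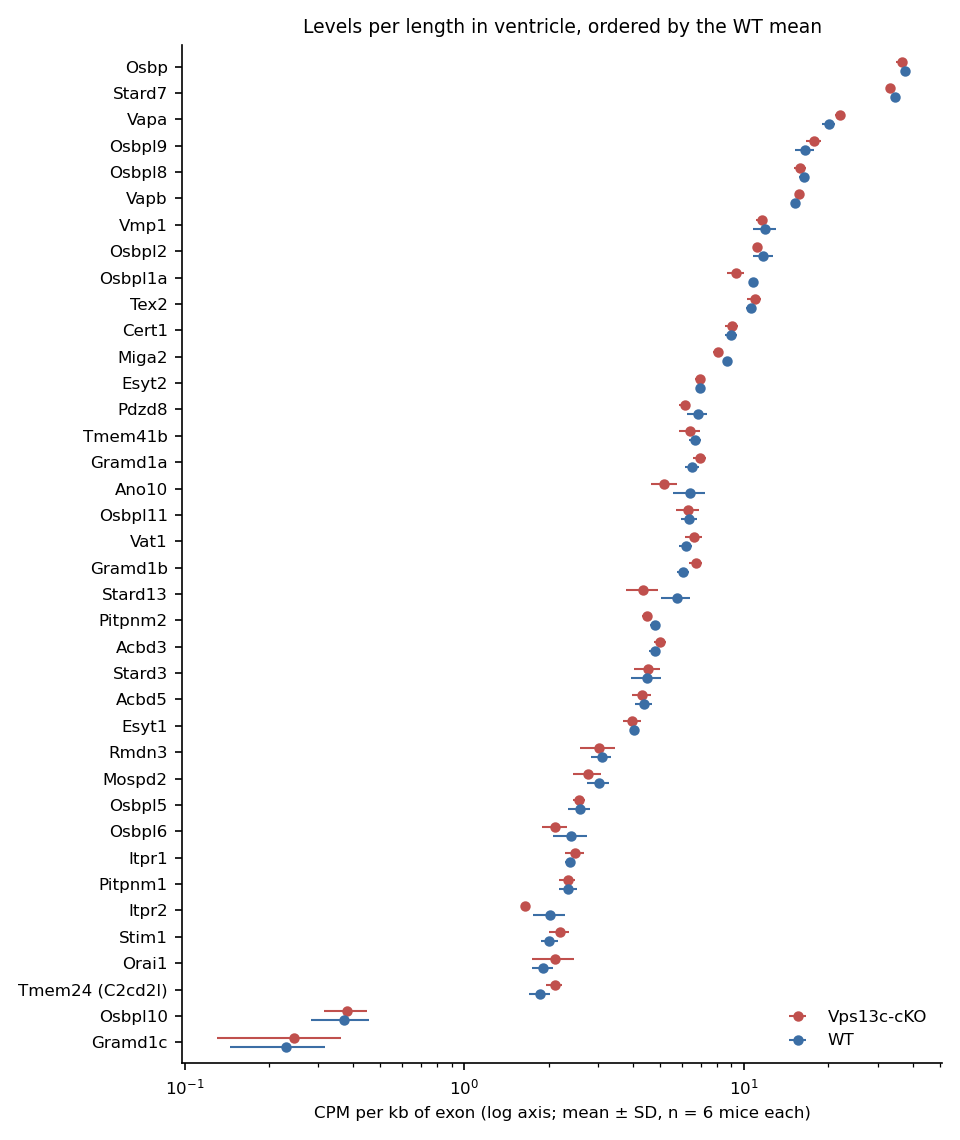
Level of each gene in CPM per kb of exon (horizontal log axis, mean ± SD, n = 6 mice each), with Vps13c-cKO above WT for each gene and genes ordered by the WT mean. Osbp, Stard7 and Vapa lead in both groups, and Osbpl10 and Gramd1c stand far below the rest.

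The VAP proteins are the ER anchors that VPS13C and many lipid carriers bind, and neither VAP gene passed the threshold. Vapa had 71.6 to 81.0 CPM in Vps13c-cKO (median 76.4) and 66.3 to 77.2 CPM in WT (median 70.0). Every Vps13c-cKO mouse lay above the WT median, but WT mouse 4, at 77.2 CPM, lay inside the knockout range. The log2 fold change of Vapa was 0.13 ± 0.04 (SE; edgeR adjusted p = 0.0572). Without WT mouse 4 it was 0.16 (adjusted p = 0.0151) and without Vps13c-cKO mouse 2 it was 0.15 (adjusted p = 0.0374), both past the threshold. Vapb, whose human counterpart is mutated in a familial motor neuron disease, had 108 to 116 CPM in Vps13c-cKO (median 113) and 102 to 110 CPM in WT (median 109). Its change was 0.06 with a 95% interval of -0.02 to 0.13 (adjusted p = 0.367). Mospd2, another ER anchor for FFAT motifs, was at -0.13 ± 0.07 (SE; adjusted p = 0.321).

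Oxysterol-binding protein relatives carry sterols and phosphoinositides between membranes, and 1 of the 9, Osbpl1a, fell. It encodes ORP1, whose long form sits on late endosomes with Rab7 and senses cholesterol. Osbpl1a had 67.2 to 78.9 CPM in Vps13c-cKO (median 71.2) and 78.6 to 86.5 CPM in WT (median 83.6). The lower end of WT was WT mouse 5, and 4 of 6 knockout mice lay below it, while Vps13c-cKO mice 1 and 3 lay just above it. The log2 fold change was -0.20 ± 0.04 (SE; edgeR adjusted p = 0.00541), and it passed the threshold in every leave-one-out fit. Osbpl6 pointed the same way with a wider spread, at 18.7 to 24.1 CPM in Vps13c-cKO (median 21.2) and 19.8 to 29.0 CPM in WT (median 24.3), a change of -0.19 ± 0.09 (SE; adjusted p = 0.186). Osbpl9 pointed the other way, with 116 to 135 CPM in Vps13c-cKO (median 122) and 106 to 132 CPM in WT (median 113), a change of 0.11 ± 0.05 (SE; adjusted p = 0.167). The top WT value of Osbpl9 came from WT mouse 6, and without that mouse the change was 0.15 (adjusted p = 0.0342), past the threshold. Exons of Osbpl9 overlap those of Nrd1 on the opposite strand over 633 bases, and reads there cannot be told apart without strand. Osbp itself had 155 to 172 CPM in Vps13c-cKO (median 164) and 163 to 172 CPM in WT (median 169), a change of -0.04 with a 95% interval of -0.11 to 0.03. The remaining 5, Osbpl2, Osbpl5, Osbpl8, Osbpl10 and Osbpl11, were between -0.08 and 0.05 with adjusted p of 0.364 or more.

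The GRAMD1 proteins (Aster proteins) take cholesterol from the plasma membrane to the ER, and Gramd1b rose by a small amount. It had 63.3 to 72.0 CPM in Vps13c-cKO (median 67.2) and 57.0 to 63.8 CPM in WT (median 62.1). Of the 6 knockout mice 5 lay above every WT mouse, and Vps13c-cKO mouse 1 lay inside the WT range. For Gramd1b the log2 fold change was 0.15 ± 0.04 (SE; edgeR adjusted p = 0.0329). This call was the least firm of the 5. The adjusted p was 0.0502, 0.0887, 0.0568 and 0.0787 without Vps13c-cKO mouse 2, 4, 5 or 6, and 0.0687 and 0.0777 without WT mouse 4 or 6. Gramd1a had 34.1 to 38.7 CPM in Vps13c-cKO (median 36.5) and 32.0 to 36.7 CPM in WT (median 33.8), a change of 0.09 with a 95% interval of -0.02 to 0.19 (adjusted p = 0.312). Gramd1c was sparsely counted, at 1.24 ± 0.582 CPM in Vps13c-cKO and 1.16 ± 0.429 CPM in WT (SD, n = 6 each).

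START-domain proteins hold a single lipid in a pocket, and Stard13 showed the steepest change of all 38 genes. Its protein, DLC2, carries a START domain and is known more for control of the cytoskeleton than for lipid transfer. Stard13 had 31.6 to 43.6 CPM in Vps13c-cKO (median 38.1) and 42.0 to 56.1 CPM in WT (median 48.8). The groups overlapped only because Vps13c-cKO mouse 2, at 43.6 CPM, lay above WT mouse 5, at 42.0 CPM. The knockout mean was 76.1% of the WT mean, a log2 fold change of -0.39 ± 0.08 (SE; edgeR adjusted p = 0.00284), and leaving out each mouse gave -0.44 to -0.35 with the call kept. A predicted gene shares 329 bases of exon with Stard13 on the same strand, and it had 0 counts in all mice. Stard7, which brings phosphatidylcholine to mitochondria, had 179 to 192 CPM in Vps13c-cKO (median 184) and 184 to 201 CPM in WT (median 194), a change of -0.06 with a 95% interval of -0.13 to 0.01 (adjusted p = 0.256). Stard3, a cholesterol carrier of late endosomes, and Cert1, which moves ceramide from ER to Golgi, were both at 0.01 with adjusted p of 0.976 and 0.961.

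Extended synaptotagmins and other SMP-domain proteins are lipid carriers anchored in the ER, and 0 of these 5 genes passed the threshold. Esyt2, which tethers the ER to the plasma membrane, had 61.2 to 66.5 CPM in Vps13c-cKO (median 63.0) and 61.1 to 65.5 CPM in WT (median 63.3). Its change was 0.00 with a 95% interval of -0.08 to 0.08. Esyt1 was at -0.02 ± 0.05 (SE). Pdzd8, a tether of the ER to mitochondria and late endosomes, had 35.3 to 39.9 CPM in Vps13c-cKO (median 35.9) and 36.6 to 44.0 CPM in WT (median 42.0). WT mice 4 and 6 lay inside the knockout range and the other WT mice above it. Its log2 fold change was -0.16 ± 0.05 (SE; edgeR adjusted p = 0.0740). Without WT mouse 4, WT mouse 6 or Vps13c-cKO mouse 3 it was -0.19, -0.19 and -0.18, past the threshold (adjusted p = 0.0293, 0.0333 and 0.0476). Tmem24, a phosphatidylinositol carrier at ER contacts with the plasma membrane, had 11.1 to 13.4 CPM in Vps13c-cKO (median 12.3) and 9.97 to 12.2 CPM in WT (median 10.4), a change of 0.18 ± 0.08 (SE; adjusted p = 0.152). Tex2 had 55.8 to 64.2 CPM in Vps13c-cKO (median 61.3) and 55.7 to 61.8 CPM in WT (median 59.0), and the change was 0.04 ± 0.04 (SE).

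The phosphatidylinositol transfer genes and the partners on mitochondria, peroxisomes and the Golgi held 0 calls. Pitpnm2 (Nir3), which restores phosphatidylinositol in the plasma membrane after receptor signalling, had 53.6 to 59.6 CPM in Vps13c-cKO (median 58.3) and 58.5 to 64.6 CPM in WT (median 61.7). Pitpnm2 had a log2 fold change of -0.10 ± 0.04 (SE; edgeR adjusted p = 0.137), and that of Pitpnm1 was -0.01 ± 0.07. Miga2, an outer mitochondrial membrane protein that binds VAPs and lipid droplets, had 47.2 to 52.1 CPM in Vps13c-cKO (median 50.6) and 51.8 to 56.9 CPM in WT (median 54.2). Only Vps13c-cKO mouse 6 reached into the WT range of Miga2, yet the change was small, at -0.11 ± 0.04 (SE; adjusted p = 0.0908). Rmdn3 (PTPIP51), the mitochondrial partner of VAPB, had 9.47 to 13.2 CPM in Vps13c-cKO (median 10.0) and 10.0 to 12.5 CPM in WT (median 10.8). The interval of its change, -0.23 to 0.15, is wide beside those of the abundant genes. The peroxisomal tether gene Acbd5, the Golgi gene Acbd3 and Vat1, which encodes a cytosolic protein at mitochondria, were at -0.02, 0.06 and 0.10, with adjusted p of 0.894, 0.504 and 0.392.

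Vmp1 and Tmem41b encode ER scramblases, which level lipids across the bilayer, and neither passed the threshold, while Ano10 fell. Ano10 belongs to the anoctamin family of ion channels and scramblases and is mutated in a recessive human ataxia. Ano10 had 28.0 to 36.8 CPM in Vps13c-cKO (median 29.8) and 31.6 to 42.1 CPM in WT (median 39.5). Below the lowest WT mouse lay 5 of the 6 knockout mice, and Vps13c-cKO mouse 6 was the exception. The log2 fold change was -0.30 ± 0.08 (SE; edgeR adjusted p = 0.0152), and leaving out each mouse gave -0.37 to -0.27 with the call kept. Vmp1 had 42.8 to 47.6 CPM in Vps13c-cKO (median 44.2) and 38.2 to 50.7 CPM in WT (median 46.5), a change of -0.04 with a 95% interval of -0.16 to 0.08. Tmem41b was at -0.06 ± 0.06 (SE; adjusted p = 0.570).

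Among the calcium genes of ER junctions, Itpr2 fell and was the only one of the 38 genes whose groups did not overlap. It encodes the type 2 IP3 receptor, an ER calcium release channel. Among IP3 receptors, this type is known to prevail in heart muscle cells and to be richer in atria than in ventricles. Itpr2 had 23.5 to 25.5 CPM in Vps13c-cKO (median 24.4) and 25.8 to 36.4 CPM in WT (median 30.0). Separate groups were found for 4.93% of all tested genes, 2.18% with all Vps13c-cKO mice below all WT mice and 2.75% with all above. The knockout mice lay close together, with a coefficient of variation of 3.11%, and the WT mice far apart, with 13.2%. Itpr2 had 1959 reads over the 6 knockout mice and 2533 over the 6 WT mice. These spreads were not tested against the noise of counting. The log2 fold change of Itpr2 was -0.30 ± 0.07 (SE; edgeR adjusted p = 0.00796). WT mouse 4, the library with atrial reads, had the second lowest WT level of Itpr2 at 26.1 CPM, and without it the change was -0.33 (adjusted p = 0.00331). The top WT level, 36.4 CPM, was that of WT mouse 1, without which the change was -0.24 (adjusted p = 0.0161). Itpr1, the type 1 receptor, had 41.3 to 50.5 CPM in Vps13c-cKO (median 45.0) and 42.1 to 46.5 CPM in WT (median 43.1), a change of 0.06 with a 95% interval of -0.05 to 0.16. Stim1, the ER calcium sensor, had 21.03 to 25.5 CPM in Vps13c-cKO (median 22.4) and 18.7 to 22.7 CPM in WT (median 20.8), with a change of 0.12 ± 0.06 (SE; adjusted p = 0.264). Orai1, the plasma membrane channel that STIM1 opens, had 3.96 to 5.72 CPM in Vps13c-cKO (median 4.84) and 4.01 to 5.04 CPM in WT (median 4.29). Its interval was -0.11 to 0.41.

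**Figure D3:**
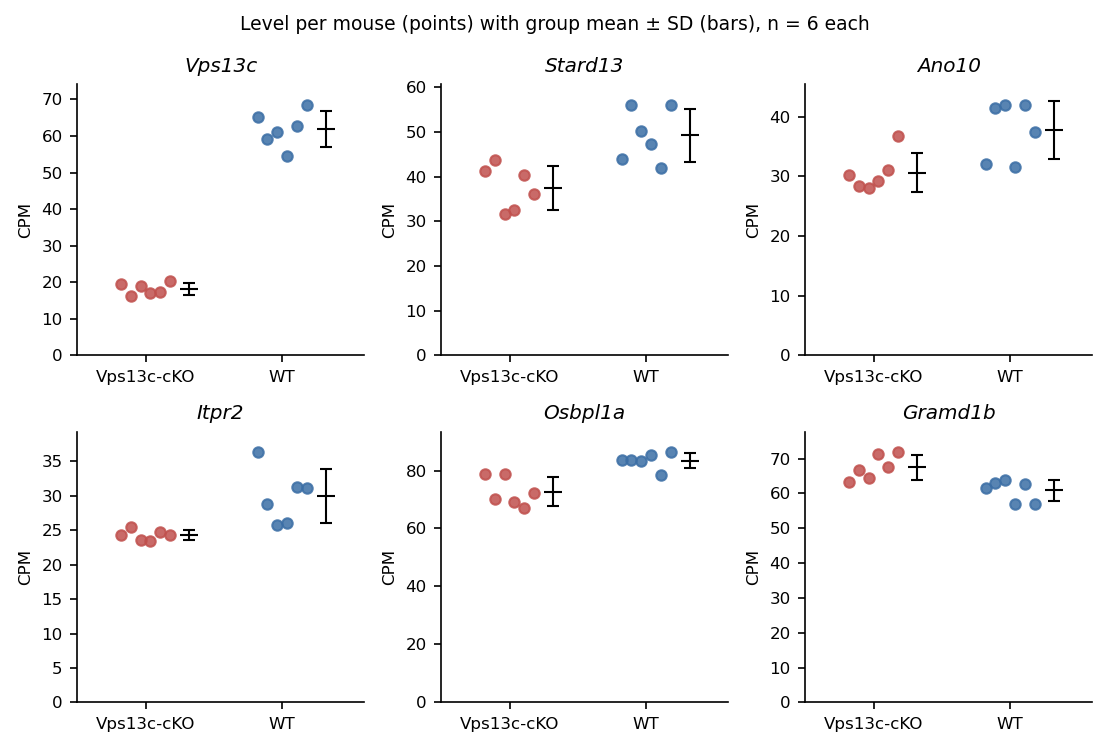
CPM per mouse (points; bars are group mean ± SD, n = 6 each) for Vps13c and the 5 genes past the threshold, Vps13c-cKO left of WT, on axes that start at 0. Vps13c and Itpr2 separate the groups completely, while for Stard13, Ano10, Osbpl1a and Gramd1b some mice of the groups overlap.

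Ratios of reads between close paralogs within the same mouse do not depend on how libraries are scaled, and 8 such pairs were compared after the single-gene values had been seen. Itpr2 reads were 0.469 to 0.618 times those of Itpr1 in Vps13c-cKO (median 0.544) and 0.603 to 0.782 times in WT (median 0.697). Knockout mice were lower, with a difference of -0.34 on the log2 scale (two-sided exact permutation p = 0.00649, n = 6 each). Adjusted over the 8 ratios by Benjamini-Hochberg, the exact permutation p was 0.0519, so this ratio did not pass. Vapa reads per Vapb read were 0.624 to 0.744 in Vps13c-cKO and 0.606 to 0.712 in WT (exact permutation p = 0.175, adjusted 0.351). Gramd1b reads per Gramd1a read were 1.75 to 1.92 in Vps13c-cKO and 1.56 to 1.96 in WT (exact permutation p = 0.338, adjusted 0.540). Osbpl1a reads per Osbpl2 read were 1.41 to 1.72 in Vps13c-cKO and 1.55 to 1.90 in WT (exact permutation p = 0.0952, adjusted 0.254). For Osbpl5 with Osbpl8, Osbpl10 with Osbpl11, Esyt1 with Esyt2 and Pitpnm1 with Pitpnm2, the exact permutation p adjusted over the 8 ratios was 0.254 or more.

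**Figure D4:**
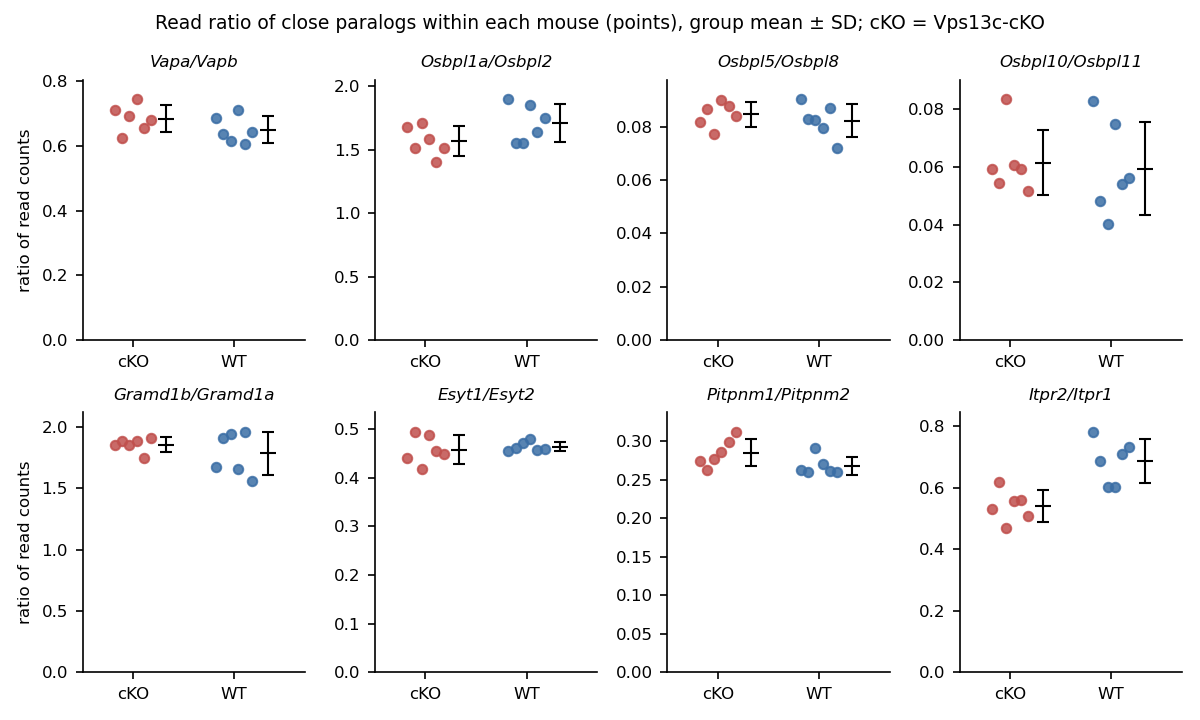
Ratio of read counts of 8 pairs of paralogs within each mouse (points; bars are group mean ± SD, n = 6 each), Vps13c-cKO left of WT. The ratio of Itpr2 to Itpr1 averages 0.540 in Vps13c-cKO and 0.686 in WT, and the mice of the groups overlap in all 8 panels.

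Promoter sequences are printed for genes that fell in the knockout, to show what stands before them. Of the 38 genes, 32 had a promoter in the RefSeq table used, and the 250 bases before the annotated start are printed for the 3 falling genes found there. They are RefSeq sequence of the build GRCm38.p6, 5′ to 3′ along the gene, and not of the build on which reads were counted. Capitals mark matches on either strand. The motifs searched were the GC box, spelled GGGCGG. The CCAAT box has the letters of its name. The E-box was searched as CACGTG. The TATA box was searched as TATAAA. No match overlapped one of another motif in these 3 windows. Counts per gene do not show which start site was in use.
Stard13, chr5:151190194-151190443, minus strand: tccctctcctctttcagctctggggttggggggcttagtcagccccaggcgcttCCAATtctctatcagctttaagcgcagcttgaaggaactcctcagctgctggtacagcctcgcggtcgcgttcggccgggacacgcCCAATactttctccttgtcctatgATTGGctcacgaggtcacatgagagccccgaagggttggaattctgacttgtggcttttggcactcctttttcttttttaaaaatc
Itpr2, chr6:146502224-146502473, minus strand: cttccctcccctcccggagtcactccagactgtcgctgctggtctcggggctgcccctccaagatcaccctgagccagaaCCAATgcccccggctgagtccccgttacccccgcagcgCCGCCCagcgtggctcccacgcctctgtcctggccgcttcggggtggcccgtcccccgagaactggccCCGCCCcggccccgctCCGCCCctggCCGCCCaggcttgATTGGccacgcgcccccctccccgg
Ano10, chr9:122294424-122294673, minus strand: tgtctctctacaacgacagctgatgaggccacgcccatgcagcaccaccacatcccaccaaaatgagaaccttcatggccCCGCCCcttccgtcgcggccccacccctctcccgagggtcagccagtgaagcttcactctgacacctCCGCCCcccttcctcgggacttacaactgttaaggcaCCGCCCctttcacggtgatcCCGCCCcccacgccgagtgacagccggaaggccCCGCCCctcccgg
None of these motifs is in all 3 windows. Stard13 holds 3 CCAAT boxes and 0 GC boxes in a window of 53.2% GC, Itpr2 holds 2 CCAAT boxes and 4 GC boxes in 74.4% GC, and Ano10 holds 5 GC boxes and 0 CCAAT boxes in 65.2% GC. Among 45 windows of the 32 genes, 68.9% held a GC box, 48.9% a CCAAT box, 8.89% an E-box and 0 a TATA box. Among all 32851 windows of the table the shares were 32.7%, 33.8%, 6.02% and 12.4%, and the median GC content was 52.4%. These are matches of letters only, and the 32851 windows were not limited to genes tested in these ventricles.

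Few further genes of contact sites and lipid transfer passed the threshold. Of 60 such genes (other VPS13 and bridge proteins, mitofusins, junctophilins, further OSBP, START and PITP genes, and the lysosomal cholesterol carriers Npc1 and Npc2 among them) 59 were tested, 1 fell and 0 rose, which is 1.69% against 10.7% of all tested genes. Before adjustment, 13 of the 59 had p under 0.05 by the same edgeR test, where 23.8% of all tested genes did. The median log2 fold change of the 59 was -0.02. The gene that fell was Pitpnc1, a soluble transfer protein for phosphatidylinositol and phosphatidic acid. Pitpnc1 had 88.2 to 100 CPM in Vps13c-cKO (median 92.3) and 104 to 122 CPM in WT (median 112). Its groups did not overlap, which held for 2 of the 59 genes and for 4.93% of all tested genes. Pitpnc1 had a log2 fold change of -0.28 ± 0.04 (SE, edgeR adjusted p = 0.000123). Stard10 pointed up, with 10.8 to 15.4 CPM in Vps13c-cKO (median 13.6) and 9.05 to 14.0 CPM in WT (median 10.2). Its change was 0.33 ± 0.11 (SE, edgeR adjusted p = 0.0584). The top WT value came from WT mouse 4, and without that mouse Stard10 passed as higher (edgeR adjusted p = 0.00827).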

How the data were processed

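Ventricular RNA of 6 Vps13c-cKO and 6 WT mice was analysed from whole-number read counts per gene, deposited by the authors without normalization, per the file headers. Tools listed in the submitters' processing notes are HISAT2 2.1.0, HTSeq 0.9.1 and fastp 0.22.0, with the build GRCm39. Neither the annotation release nor the use of strand is given. The labels' protocols describe PCR and name no molecular identifiers, so counts are taken as reads. Names, chromosomes and exon lengths came from GENCODE M21 (GRCm38), in which 21902 of 21959 IDs had a name. 0 columns of per-sample values went unused.

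Genes passing filterByExpr were tested with the quasi-likelihood F test of edgeR 4.0.16 (R 4.3.3), TMM factors and Benjamini-Hochberg adjustment over 12384 genes, called at an adjusted p under 0.05. This test gave the adjusted p-values of single genes. CPM use TMM-scaled library sizes, and intervals are 95% intervals of the fit. The test was checked on simulated data. The fit was repeated with DESeq2 1.42.0 and limma-voom (limma 3.58.1), with scaling by upper quartile or by size factors, without the filter or keeping genes whose mean reached 5 CPM, with the replicate number as a block, and without each mouse in turn. Ratios were tested with exact permutation tests (scipy 1.17.1).

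Members and lists were chosen with earlier results of these data known. Described in full are members past the threshold, the 8 others with the smallest p, the most abundant of each family per kb, and Vapa, Vapb, Rmdn3, Stim1, Orai1, Itpr1 and Itpr2. Of the further list, genes past the threshold are described, and Stard10, which passed without WT mouse 4. Vdac1, Orai3, Jph2 and Stard4 are named only for the alternatives in which they passed. Chi-square per gene between replicates was 3.11 to 5.62, and no pair was treated as the same library.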

Additional observations from a re-analysis of the deposited data

Results flagged for a closer look

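In 48 groups of 6 mice (23 contact site genes and Vps13c, each group by itself), 3 had a mouse set apart from the others by more than Dixon's 95% critical value allows. Chance flags about 1 in 20 groups. Ano10 was 36.8 CPM in Vps13c-cKO mouse 6, where the next highest knockout mouse had 31.1 CPM. Vapa was 77.2 CPM in WT mouse 4, where the next highest WT mouse had 70.2 CPM, and this is the mouse with atrial reads. Vapb was 102 CPM in WT mouse 1, where the next lowest WT mouse had 108 CPM.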

How the results depend on the processing

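The count of contact site genes past the threshold was 5 and ranged from 4 to 6 over all alternatives. Stard13, Itpr2, Ano10 and Osbpl1a passed in all 12 fits that left out a mouse and in all 7 other alternatives. Gramd1b passed in 6 of 12 and 5 of 7, and was lost without a filter (adjusted p = 0.0517) and with the replicate number as a block (adjusted p = 0.0669). Vapa passed with a minimum mean of 5 CPM (adjusted p = 0.0430). Causes were not tested. Of further genes, 1 passed, and 2 did by DESeq2 and by limma-voom (Vdac1 joined) and with the block (Stard10 joined). Leaving out a mouse gave 1 to 2. Stard10 joined without WT mouse 4 and without Vps13c-cKO mouse 3 or 5 (edgeR adjusted p = 0.00827, 0.0302 and 0.0399). Vdac1 joined without WT mouse 1, Orai3 without Vps13c-cKO mouse 2, Jph2 without Vps13c-cKO mouse 6 and Stard4 without WT mouse 6. Over all genes 1331 passed, 1312 with the block, and 1065 to 1397 when a mouse was left out. Mice with the same number correlated between -0.0411 and 0.0887 in their deviations from the group means, and 1 of 6 knockout mice correlated best with its own number, so the numbers were not taken as pairs. Vps13c stayed between -1.80 and -1.74 on the log2 scale when a mouse was left out. Depth limits Gramd1c, Osbpl10 and Orai1, whose intervals are the widest.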
